A study of Cairina moschata with 9 samples.

Results

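The genes described here are the 100 whose level in abdominal fat of Muscovy duck (Cairina moschata) varied least over the libraries of 3 ages. They were chosen from 14814 genes by measured values. A gene was eligible with a mean of at least 10 FPKM (fragments per kilobase of transcript, relative to all fragments mapped in the library) and a value above 0 in all 9 libraries, which held for 7382 genes. Among these, the 100 with the lowest standard deviation (SD) of log2(FPKM + 1) over the 9 libraries were taken, and rank 1 is the lowest SD. The same values chose and describe the members, so their small spread is no finding and was not tested.

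Abdominal fat was taken from ducks of normal body weight at 12, 35 and 66 weeks of age, with 3 birds and 1 library per bird at each age. No bird was treated, and their sex and genetic line are not stated. According to the labels, all 12-week libraries have lane code 3, all 35-week libraries 4 and all 66-week libraries 5, and an effect of lane cannot be told apart from one of age. A library had between 12775 and 13121 genes above 0, and the FPKM that 1 fragment is worth in sparse genes under 1 FPKM gave a relative depth between 0.891 and 1.29, with 1 as the mean. The number of fragments per library is not stated, and these depths presume that the libraries were not rescaled.

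A reference gene is a transcript whose level is taken as constant, so that the levels of other transcripts can be expressed relative to it, in quantitative PCR for example. Such genes are often sought among those that every cell uses, for protein synthesis, energy metabolism or the cytoskeleton. No gene is constant in all tissues, and a candidate is usually checked in the tissue and over the conditions of the study. Fat is a demanding case, because lipid-filled adipocytes, vessels, connective tissue and immune cells contribute RNA in shares that may shift as the depot grows. In whole tissue a change in the number of cells of a type and a change in RNA per cell cannot be told apart, and an unchanged level can hide opposite changes of both. The table gives Ensembl-type identifiers without gene names, so the function of the members, the familiar reference genes and the marker genes of fat cells were not examined here, and members are given by rank and level.

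The most stable gene, ENSAPLG00000003573, lay between 19.0 and 21.1 FPKM over all birds. It stood at 19.9, 19.0 and 20.7 FPKM at 12 weeks, at 19.8, 19.98 and 20.5 FPKM at 35 weeks and at 20.1, 20.7 and 21.1 FPKM at 66 weeks. The 3 ages overlapped, with the lowest value at 12 weeks and the highest at 66 weeks. Its mean was 19.9 ± 0.831 FPKM at 12 weeks, 20.1 ± 0.377 at 35 weeks and 20.6 ± 0.533 at 66 weeks (SD, n = 3 each). The highest library was 1.11 times the lowest, and the SD of log2(FPKM + 1) was 0.0431, against 0.0531 at rank 2.

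ENSAPLG00000010093, of rank 2, had a similar level. It was at 20.4, 23.0 and 21.8 FPKM at 12 weeks, at 22.3, 22.1 and 21.3 FPKM at 35 weeks and at 21.4, 20.5 and 21.9 FPKM at 66 weeks. Both its lowest and its highest value came from 12-week birds, so the whole range over ages was found within 1 age. ENSAPLG00000007282, of rank 3, had a higher mean, 98.9 FPKM. It stood at 102, 95.2 and 102 FPKM at 12 weeks, 101, 97.4 and 97.6 FPKM at 35 weeks and 92.5, 104 and 98.2 FPKM at 66 weeks. Its extremes both came from 66-week birds, and 3.13% of its variance on the log2 scale lay between the ages. ENSAPLG00000002437, of rank 6, was at 25.4, 27.3 and 26.3 FPKM at 12 weeks, at 26.7, 28.3 and 25.5 FPKM at 35 weeks and at 26.4, 27.1 and 28.2 FPKM at 66 weeks. Its age means, 26.3 ± 0.976, 26.8 ± 1.42 and 27.2 ± 0.941 FPKM (SD, n = 3 each), differed by less than the spread between birds of 1 age.

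**Figure D1:**
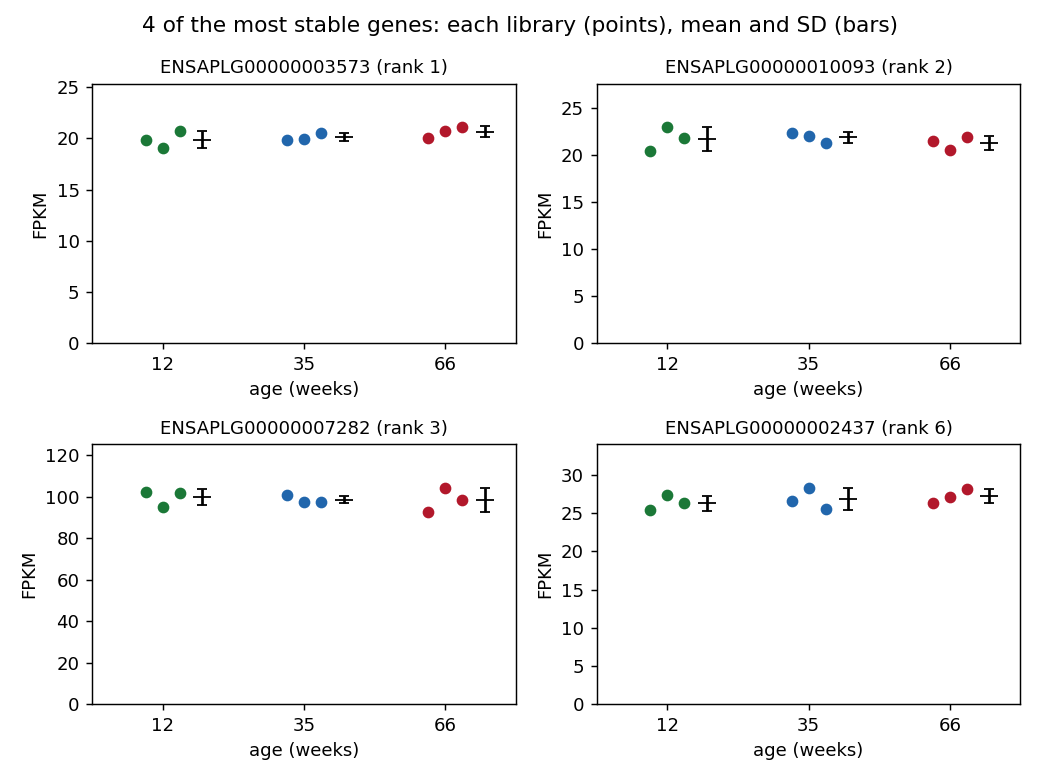
FPKM of 4 of the most stable genes by age in weeks. Points are libraries (3 birds per age), and the bars beside them are the mean and SD; each axis starts at 0, and in all 4 genes the highest library is no more than 1.13 times the lowest.

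Over the 100 members the SD rose from 0.0431 to 0.0858, with a median of 0.0768, where the 7382 eligible genes had a median of 0.280. The rule has no natural edge: the SD was 0.0857, 0.0858 and 0.0858 at ranks 98 to 100 and 0.0859, 0.0860 and 0.0861 at ranks 101 to 103. In FPKM itself, the coefficient of variation (SD over mean) ran from 3.12% to 6.45% with a median of 5.57%, against 20.2% in the median eligible gene. The highest library of a member was 1.11 to 1.25 times its lowest, and 1.18 times in the median. The corresponding median over the eligible genes was 1.84.

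The members were mostly of moderate level. Their mean ran from 10.2 to 295 FPKM with a median of 32.0 FPKM, close to the 30.2 FPKM of the eligible genes, but they did not reach the upper end of the range. Of the 6258 eligible genes with a mean under 100 FPKM 93 were members, which is 1.49%, and of the 1124 at 100 FPKM or more 7 were, or 0.623%. The share was greatest from 50 to 100 FPKM, with 24 of 1168 genes or 2.05%. None of the 256 genes at 500 FPKM or more was a member, and the lowest SD among them was 0.115. The median SD was 0.260 from 20 to 50 FPKM and 0.550 at 1000 FPKM or more, so the genes with the highest FPKM values varied most. A high FPKM value can also be few fragments on a short transcript, and transcript lengths were not used here.

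**Figure D2:**
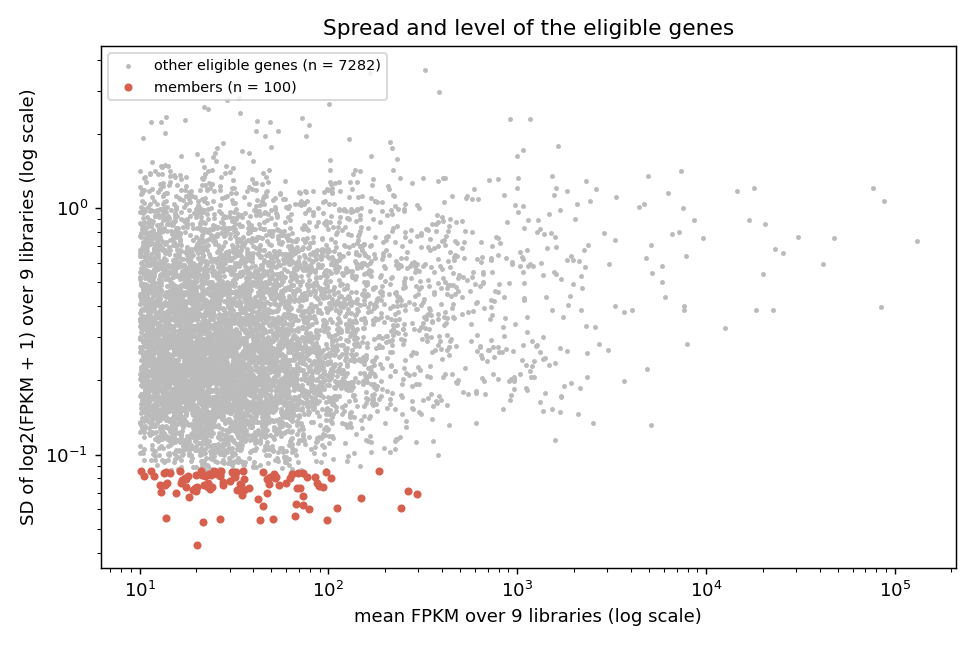
SD of log2(FPKM + 1) over the 9 libraries (log axis) against mean FPKM (log axis) for the 7382 eligible genes, with the 100 members in colour. The members form the lower edge between 10.2 and 295 FPKM, and the lowest SD at 500 FPKM or more is 0.115.

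A mean above 100 FPKM was reached by 7 members. The highest, of rank 20, had 292, 296 and 306 FPKM at 12 weeks, 306, 275 and 281 FPKM at 35 weeks and 297, 283 and 320 FPKM at 66 weeks. Its lowest library was a 35-week and its highest a 66-week bird, and the ages overlapped. The member of rank 24, at a mean of 264 FPKM, lay between 248 and 283 FPKM, with 1.60% of its variance between the ages. The member of rank 10, at a mean of 241 FPKM, was at 241, 234 and 230 FPKM at 12 weeks, at 238, 231 and 240 FPKM at 35 weeks and at 243, 259 and 257 FPKM at 66 weeks. All 66-week birds were above all others in this gene, and 69.3% of its variance lay between the ages although its total spread was small. At the other end, the member of rank 98 had the lowest mean, 10.2 FPKM, and ranged from 8.98 to 11.2 FPKM.

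Low total spread did not mean that birds of different ages always overlapped. The comparison of ages asks which transcripts of the depot change as the birds mature. Between 12 and 35 weeks, 3 of the 100 members had all 35-week libraries above all 12-week libraries and 11 had them all below, beside 9.96% and 6.62% of the 11491 genes tested, those at 1 FPKM or more on average. Between 35 and 66 weeks, 12 members were higher in all 66-week libraries and 3 were lower, beside 18.0% and 18.9%. Between 12 and 66 weeks the counts were 5 higher and 6 lower, beside 13.3% and 9.77%. The rule used these same values, so nothing is read from the counts.

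The sizes of these differences were small, which the limit on the total SD requires, so nothing is read from them. The difference of age means on the log2(FPKM + 1) scale ran from -0.14 to 0.14 between 12 and 35 weeks, from -0.13 to 0.17 between 35 and 66 weeks and from -0.16 to 0.15 between 12 and 66 weeks. Its size exceeded 0.1 in 11, 20 and 17 of the 100 members, against 71.9%, 79.9% and 76.4% of the eligible genes. The largest difference between any 2 ages was 1.06-fold in the median member and at most 1.12-fold. In the eligible genes that median was 1.30-fold.

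The member with the largest rise with age, of rank 97, went from 34.6, 32.1 and 33.0 FPKM at 12 weeks over 33.3, 35.6 and 36.2 FPKM at 35 weeks to 37.3, 38.8 and 35.2 FPKM at 66 weeks. Its 66-week libraries were above its 12-week libraries without overlap, and the 35-week libraries spanned the gap. The member with the largest difference in the other direction, of rank 69, had 24.1, 24.1 and 22.3 FPKM at 12 weeks, 22.4, 22.8 and 21.8 FPKM at 35 weeks and 21.9, 20.2 and 20.8 FPKM at 66 weeks. Here too 12 and 66 weeks did not overlap, and the means were ordered by age. In the member of rank 40 the birds of 1 age were closest together: it had 22.9, 22.5 and 23.6 FPKM at 12 weeks, 23.0, 22.1 and 22.8 FPKM at 35 weeks and 20.4, 20.5 and 20.9 FPKM at 66 weeks. All 66-week birds were lower than all others, 89.3% of the variance lay between the ages, and the gene ranked first of all 7382 when genes were ordered by their spread within ages.

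No member passed the test for age. In the limma fit across 11491 genes, with Benjamini-Hochberg adjustment, the moderated F test across ages called 0 of 100 members, beside 0.94% of all genes, and the lowest adjusted p of a member was 0.400. The comparison of 35 with 12 weeks called 0 members beside 0.0174% of all genes, that of 66 with 35 weeks 0 beside 3.52%, and that of 66 with 12 weeks 0 beside 0.366%. At an unadjusted p under 0.05 the F test also gave 0 members, beside 22.7% of all genes, and each pairwise comparison 0, beside 12.2%, 25.5% and 16.9%. These zeros follow from the construction, since the rule took genes with small differences and limma draws the spread of such genes up towards that of genes of like level. The median standard error of a difference was 0.0996 (log2) for the members in this fit, and 0.0597 from their own spread within ages.

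Of the spread that remained, a median of 27.5% lay between the ages, against 42.1% in the eligible genes. The rule chose genes for a small total variance, which includes the part between ages, so nothing is read from the lower share. With 3 birds per age, differences between birds alone also put part of the variance between the ages. The SD among the 3 birds of an age had a median of 0.0646 at 12 weeks, 0.0579 at 35 weeks and 0.0692 at 66 weeks in the members, and of 0.242, 0.184 and 0.187 in the eligible genes. The 12-week birds were thus the most dispersed over the eligible genes but not over the members. The rule held down the spread of the members at every age, so nothing is read from this contrast. By the order of age means, without a test, 40 members were highest at 12 weeks, 17 at 35 weeks and 43 at 66 weeks, beside 23.5%, 32.7% and 43.9% of the eligible genes. Lowest at 12, 35 and 66 weeks were 30, 42 and 28 members, beside 28.8%, 37.3% and 33.9% of the eligible genes. The rule used these same values, so nothing is read from the order.

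The members also shared a small part of their deviations from library to library. Their median deviation from the gene mean was -0.022 and -0.043 (log2) in 35-week replicates 1 and 2, where only 37 and 27 of the 100 members lay above their own mean. It was 0.023 in 12-week replicate 3, 0.019 in 66-week replicate 2 and 0.034 in 66-week replicate 3, where 60, 64 and 64 members lay above. The third 35-week library, replicate 3, was at 0.021 with 59 members above, and 66-week replicate 1 at -0.018 with 37 above. The 12-week replicates 1 and 2 were at 0.0029 and -0.0035. Libraries of 1 age thus lay on both sides of the gene means. In the median over all eligible genes, 35-week replicate 2 was likewise the lowest library, at -0.042, and 66-week replicate 3 the highest, at 0.064. The lowest and highest libraries of the members were thus those of the eligible genes as a whole. The size of a member's deviation had a median between 0.045 and 0.069 in the 9 libraries, against 0.15 to 0.24 in the eligible genes. Replicate 3 of the 12-week birds, which had the largest median size in the eligible genes at 0.242, followed by 0.240 in 35-week replicate 3, was at 0.054 in the members.

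**Figure D3:**
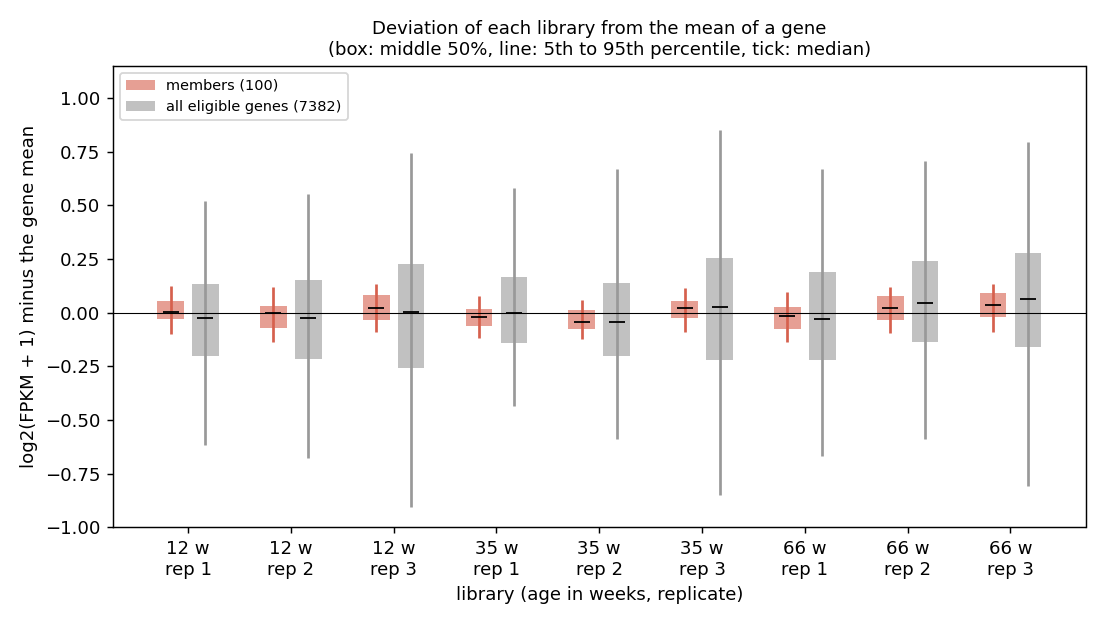
Deviation of log2(FPKM + 1) from the mean of each gene, by library, for the 100 members and for the 7382 eligible genes; boxes hold the middle 50%, lines run from the 5th to the 95th percentile and ticks are medians. The members are lowest in 35-week replicate 2, at -0.043, and highest in 66-week replicate 3, at 0.034.

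Averaged over many genes, the shared part of these deviations is what is left. The geometric mean of the 100 members was 35.3, 34.7 and 35.5 FPKM at 12 weeks, 34.5, 34.2 and 35.4 FPKM at 35 weeks and 34.4, 35.6 and 35.9 FPKM at 66 weeks. The ages overlapped, and the highest library was 1.05 times the lowest. The first 10 members gave a ratio of 1.03 and the first 3 one of 1.05, so 3 genes chosen on these libraries were about as even as 100. The same libraries chose the genes, so these ratios cannot show how many genes are enough. The log2 ratio between 2 members is not changed by dividing a whole library by 1 factor. It had a median SD of 0.104 over the 4950 pairs, from 0.0327 for ranks 26 and 44 to 0.166 for ranks 70 and 91.

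A spread used to choose genes understates what a further bird would show. The rule was therefore applied to 8 libraries at a time, and the library left out was set against the mean of the 8. Between 64 and 79 of the 100 members were chosen again, the fewest without 12-week replicate 3 and the most without 35-week replicate 1. In the libraries used, the median SD of the genes chosen lay between 0.0703 and 0.0757. In the library left out, the size of their deviation had a median between 0.0752, in 35-week replicate 1, and 0.125, in 12-week replicate 3, and its 90th percentile lay between 0.186 and 0.322. An SD and a median size are unlike measures, so these cannot be set against each other directly. For the 100 members, chosen on all 9 libraries, the median size was 0.0453 and 0.0539 in these 2 libraries. It was taken there from a mean that included the library. For all genes eligible without that library the median was 0.171 to 0.270. The chosen genes deviated less than the eligible genes in each of the 9 libraries, at 0.330 to 0.531 of their median, and the largest single deviation was 0.783 (log2), in 12-week replicate 3.

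In some of the libraries they had not been chosen on, the genes chosen also shifted as a block. Their median deviation was 0.0914 in 12-week replicate 3 and 0.101 in 66-week replicate 3, and it was -0.0826 in 35-week replicate 2 and -0.0845 in 66-week replicate 1. The eligible genes had medians of -0.00505, 0.0662, -0.0497 and -0.0374 in these libraries. In the other libraries the median of the chosen genes lay between -0.0393, in 35-week replicate 1, and 0.0482, in 35-week replicate 3. It was only 0.0032 in 12-week replicate 1. The mean over the 100 chosen genes was off by 0.0063 to 0.0915, that over the first 10 by up to 0.127 and that over the first 3 by up to 0.155 (log2). The first 3 genes, which were chosen anew in each list, were off by 0.0654 in the median of the 9 libraries.

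Leaving out a whole age removes 3 libraries at once, so its counts cannot be set against those without 1 library. Without the 12-week, the 35-week or the 66-week libraries, 35, 46 and 38 of the members were chosen again. In the age left out, the mean of a chosen gene differed from the other ages by a median of 0.113, 0.0802 and 0.108 (log2), against 0.155, 0.201 and 0.242 in the eligible genes. For 12 weeks this was 0.731 of the value for eligible genes, and for 35 and 66 weeks 0.400 and 0.445. A gene that looked stable at 12 and 35 weeks could differ at 66 weeks by as much as 1.02 (log2), the largest shift seen.

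**Figure D4:**
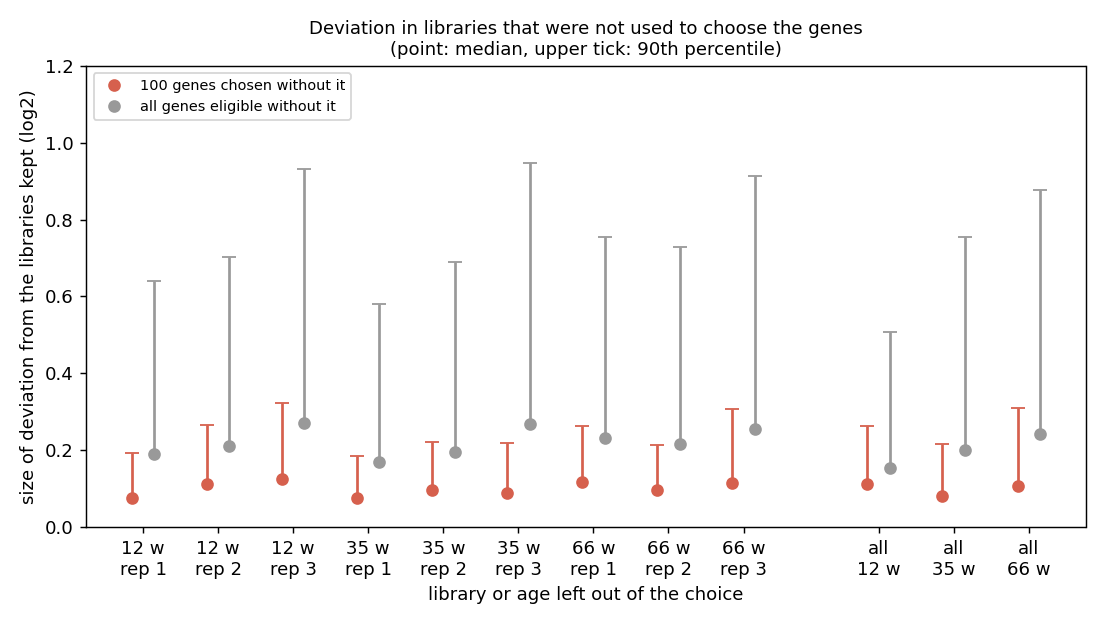
Size of the deviation (log2) of a library, or of the mean of an age, from the libraries used to choose genes, for the 100 genes chosen without it and for all genes eligible without it. Points are medians and upper ticks 90th percentiles; the medians of the chosen genes lie between 0.0752 and 0.125 and below those of the eligible genes in all 12 cases.

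Of the 100 members, 47 were chosen in all 9 lists made without 1 library. All 47 were among the first 50 ranks, the first rank missing from a list was 44, and none of the members of ranks 51 to 100 was in all 9. The 9 lists together held 310 genes, so the lower part of the list changed with single libraries.

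Which genes are stable depended on what the libraries were scaled to. The deposited FPKM values summed to 1312370 ± 135997 at 12 weeks, 1606170 ± 107047 at 35 weeks and 1972450 ± 149720 at 66 weeks (SD, n = 3 each). Genes at 1000 FPKM or more on average held 63.8% ± 3.62, 68.9% ± 2.46 and 72.5% ± 1.46 of these sums (SD, n = 3 each). When each library was divided by its sum (TPM, a transcript's share of the library's total), 0 of the 100 genes with the lowest SD were members. The best-placed member was then at rank 405 and the median member at rank 1412. ENSAPLG00000003573 fell to rank 953, with an SD of 0.244. The geometric mean of the members in TPM was 28.1, 23.7 and 29.2 at 12 weeks, 20.1, 21.4 and 23.5 at 35 weeks and 18.3, 18.8 and 16.7 at 66 weeks. Every 66-week library was below every other library, and 35-week replicate 3 lay just under 12-week replicate 2.

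In TPM all 100 members had a lower mean at 66 than at 12 weeks, with a median log2 difference of -0.55. The eligible genes had a median of -0.52, so the members shifted with the bulk of the genes. In limma on log2(TPM + 1), 96 members were lower at 66 than at 12 weeks past an adjusted p of 0.05, beside 29.4% of all genes, and 0 were higher, beside 0.557%. The F test over the 3 ages called 40 members, beside 18.8%. The calls use the values that chose the members, so nothing further is read from these counts. The 100 genes most stable in TPM had FPKM values that were all higher at 66 than at 12 weeks, by 0.23 to 0.74 (log2).

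Scalings that do not rest on the whole sum left more of the list in place. Median-ratio scaling, whose factors lay between 0.973 and 1.03, kept 72 members, and quantile normalization kept 66. Factors so near 1 left the values almost as deposited. Quantile normalization moved the eligible genes' median difference between 66 and 12 weeks only from 0.042 to -0.028 (log2). Such small shifts favour keeping the list, so nothing is read from either count. Dividing by the sum over genes under 1000 FPKM kept 24. That sum amounted to 471497 ± 9524, 497867 ± 14509 and 541418 ± 14558 at 12, 35 and 66 weeks (SD, n = 3 each). Ordering by geNorm M, the mean SD of a gene's log2 ratio to each other eligible gene, is not changed by dividing a whole library by 1 factor. It kept 66 members and again put ENSAPLG00000003573 first, with an M of 0.393. The members had a median M of 0.401 and the eligible genes one of 0.499. M was taken from the same 9 libraries, and a gene with a low SD tends to a low M. The lower M of the members is thus favoured by the choice, and nothing is read from it. By this measure ENSAPLG00000007282 was at rank 9, ENSAPLG00000002437 at rank 24 and ENSAPLG00000010093 at rank 55.

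**Figure D5:**
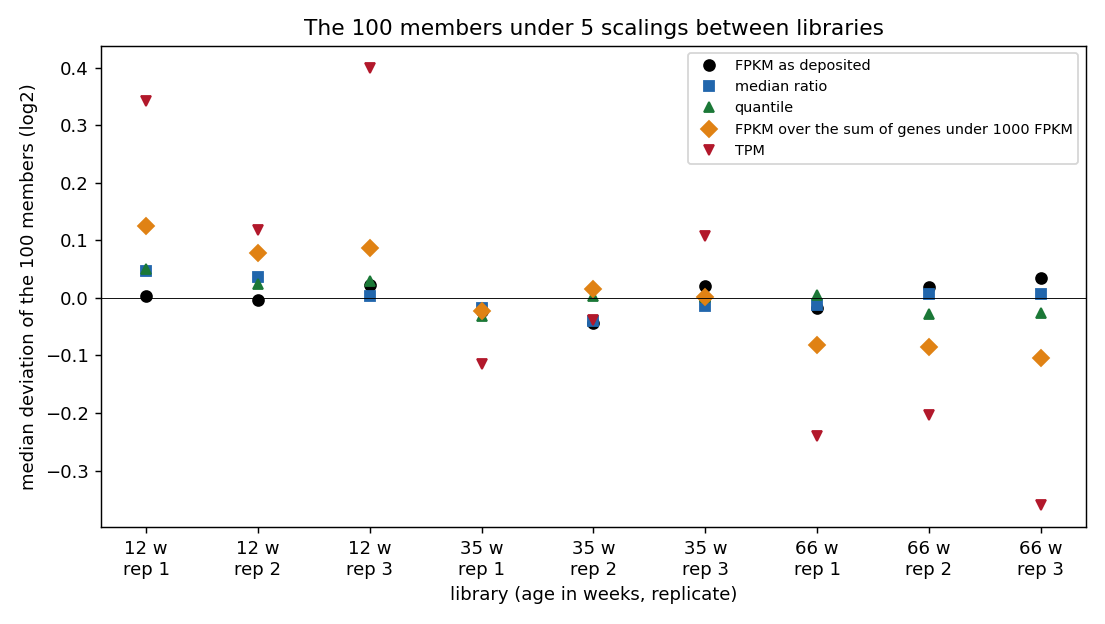
Median deviation of the 100 members from their gene means (log2), by library, under 5 scalings between libraries. As deposited the medians lie between -0.043 and 0.034, while in TPM they run from 0.40 in 12-week replicate 3 to -0.36 in 66-week replicate 3.

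A core of 11 members was chosen under 21 settings. These were the 9 lists without 1 library and 12 other settings, with another pseudocount, measure of spread, floor or scaling (the sum over genes under 1000 FPKM among them, added after seeing the data), apart from TPM, the floor of 50 FPKM and the lists without a whole age. The 11 had ranks 1, 6, 7, 10, 11, 13, 14, 17, 22, 27 and 41, and means from 13.8 FPKM at rank 7 to 241 FPKM at rank 10. All of them had a higher log2 mean at 66 than at 12 weeks, by 0.026 (rank 17) to 0.12 (rank 41). Of the 100 members, 54 did, beside 54.8% of the eligible genes. The scaling by genes under 1000 FPKM itself chose 100 genes whose FPKM means were all higher at 66 than at 12 weeks, by 0.025 to 0.30 (log2). A core gene had to be in that list, so the shared direction of the 11 was fixed by the choice and nothing is read from it. The 12 other settings alone gave the same 11. Besides ENSAPLG00000003573 and ENSAPLG00000002437, the core held the member of rank 11, which had 103, 108 and 111 FPKM at 12 weeks, 115, 106 and 110 FPKM at 35 weeks and 114, 113 and 117 FPKM at 66 weeks. In this gene the 66-week libraries lay above all 12-week libraries, and the 35-week libraries overlapped both. The means of 12 and 66 weeks differed by 0.10 on the log2 scale. The member of rank 17 had the third-lowest geNorm M, and its values ran from 17.1 to 19.6 FPKM.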

How the data were processed

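The deposited table holds FPKM values made by the authors, as its column headers state. The submitters' processing notes name TopHat2 2.0.9 as well as Cufflinks 2.1.1 and Cuffdiff, without saying what each did. Build, annotation and any rescaling of libraries are not stated in the sources used here. FPKM depends on the fragments mapped and on the gene models, so a shared shift of a library moves all genes of that library.

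Values were taken as log2(FPKM + 1). The members and lists were chosen with earlier results of these data known. The fixed gene lists and markers need gene names and could not be used; identifiers are printed, by a fixed rule, for the 2 members of lowest SD with a higher and the 2 with a lower 66-week than 12-week mean, and the other members described were chosen after their values were seen, for level, age difference or place in the core. Ages were tested with limma 3.58.1 in R 4.3.3 (all 9 libraries, trend, 11491 genes averaging at least 1 FPKM, two-sided, Benjamini-Hochberg, threshold 0.05), with Python 3.11.15, numpy 2.4.6, pandas 2.3.3 and scipy 1.17.1 for the rest and matplotlib 3.10.9 for plots. The code of the rule and the fit was checked on simulated data. The stable genes planted there had a lower SD than any member, so the check does not show how well members were picked. No 2 libraries were identical. Scaling, filter, pseudocount, measure of spread and single libraries were varied; the scaling by genes under 1000 FPKM was added after seeing the data.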

Additional observations from a re-analysis of the deposited data

How the results depend on the processing

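Of the 100 members, the number chosen again was 0 in TPM, 24 with the sum over genes under 1000 FPKM (added after seeing the data), 66 with geNorm M, 66 with quantile normalization, 35 with the pooled SD within ages, 31 with a floor of 50 FPKM, which removes members by construction, and 60 with no floor on the mean, which admits low genes. It was 35, 46 and 38 without the 12-week, 35-week and 66-week libraries and 64 to 79 without 1 library. The other 7 settings kept 72 to 95. The F test over the 3 ages called 108 genes, 2162 in TPM, 199 with the sum over genes under 1000 FPKM, 2 with the replicate number as a block (replicate block), and 2 to 1151 without 1 library. These were 69 and 1151 without 12-week replicates 1 and 3, and 2 to 10 without any 35-week or 66-week library. Of the members, 0 were called under each alternative except TPM. TPM gave 40 by the F test, beside 18.8% of all genes, and 96 from 12 to 66 weeks, beside 29.9% in either direction. The cause of these changes was not tested. The rule chose genes with small differences, which favours a count of 0, so nothing is read from the zeros. The SD of each of the 4 members given by identifier moved by more than its spread within ages in 1 of 14 alternatives, TPM. That limit was about as large as the SD itself, for example 0.0418 against 0.0431 at rank 1 and 0.0615 against 0.0541 at rank 3. Leaving out 1 library or changing the pseudocount could hardly exceed it, so nothing is read from the other 13. The labels do not say whether replicate numbers pair the birds. For the 9 pairs of like-numbered libraries the correlation of deviations was between -0.0939 and 0.215, and it exceeded 0.1 in 2. No values of unlike-numbered libraries are set beside these, so they cannot decide whether birds were paired. The block called 0 members, but the rule itself favours that count, so it does not bear on pairing. Fragment numbers and transcript lengths were not used here, so how much of a member's spread is counting error is unknown.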
